A study of Mus musculus with 12 samples.

Results

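Tudor domain proteins of germ cells are described here across 12 whole mouse testes. The group was given as a list of 9 gene symbols (Tdrd1, Tdrd3, Tdrd5, Tdrd6, Tdrd7, Tdrd9, Tdrkh, Rnf17 and Stk31). All 9 were measured, each by 1 transcript cluster of the array, among 22180 genes tested. All mice were on the C57BL/6N strain background, were 2 weeks old and received no treatment. The 3 Sox3-KO testes (KO) came from mice in which Sox3, an X-linked SoxB1 transcription factor gene, was disrupted with CRISPR/Cas9. The 3 Sox3-Sox2KI testes (KI) came from a line also made with CRISPR/Cas9, whose allele the labels name only as Sox3-Sox2KI. The 6 wild-type testes (WT) were 3 littermates of KI mice (WT 1 to WT 3) and 3 littermates of KO mice (WT 4 to WT 6). The labels call replicates biological. They do not say how many founders each line had, whether 2 testes of 1 mouse were used or whether testes came from separate litters.

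Tudor domains are small folds that bind methylated arginines. Some germ cell proteins carry several of them and hold PIWI proteins and their helpers together in the cytoplasmic granules called nuage. There piRNAs, the small RNAs that guide PIWI proteins, are made and transposons are silenced. Several Tudor proteins are already made in spermatogonia, while others belong mainly to meiotic spermatocytes or to the chromatoid body of spermatids. Tdrd3 is not confined to germ cells: it is found in most tissues and works with the topoisomerase Top3b.

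The tissue label was checked against marker lists. On all 12 arrays the mean of 15 Sertoli cell markers lay between 9.53 and 9.99 on the log2 scale, and that of 26 early meiotic genes between 7.54 and 8.76. The mean of 5 epididymis markers lay between 3.95 and 4.36. The limit used for background was 5.33, the 95th percentile of the mean levels of 1105 olfactory receptor genes. Of the 10 spermatid markers measured, 7 had a mean under that limit, among them the protamine gene Prm1 and the transition protein gene Tnp1. Sox3 lay between 6.57 and 6.65 in KO testes against 7.21 to 7.36 in WT testes, and was 7.26, 6.75 and 6.95 in KI testes. The array labelled KI 1 thus lay in the WT range for Sox3, and Sox2 was under the background limit on all 12 arrays. Which part of Sox3 the probes cover is not given in the labels, so these levels are no check of the KI labels.

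RefSeq promoter windows, each the 250 bases before a start, were matched for 7 of the 9 members (12 windows, GRCm38.p6). Tdrd6 and Rnf17 had none. The windows are shown because most members moved together in the arrays described further on. The window of Tdrkh lies at chr3:94412994-94413243 on the plus strand and ends at the first start of the gene. No base of it is in capitals, since it held neither the MYB letters AACGG nor the SOX letters AACAAT on either strand.
Tdrkh: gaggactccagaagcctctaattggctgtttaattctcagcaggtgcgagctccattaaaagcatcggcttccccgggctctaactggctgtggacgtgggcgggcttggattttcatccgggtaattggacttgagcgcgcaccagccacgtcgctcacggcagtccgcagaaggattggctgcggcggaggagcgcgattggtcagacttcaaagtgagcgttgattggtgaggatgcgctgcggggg

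The MYB letters were searched because Mybl1, the MYB factor of pachytene spermatocytes, is known to drive piRNA pathway genes. They were found in 3 of the 12 windows, in each case within the last 30 bases, which are printed below with the match in capitals. How many of all windows hold the letters in their last 30 bases was not counted, so their place is not a result. The stretch of Tdrd9 is chr12:111971529-111971558 on the plus strand, that of Tdrd5 is chr1:156303349-156303378 on the minus strand, and that of Tdrd7 is chr4:45972801-45972830 on the plus strand, at the most downstream of its 3 windows.
Tdrd9: ggggtgggggtagaggcttctggAACGGtc
Tdrd5: cgtcccggacctgcggcgcgcAACGGcagc
Tdrd7: cacatcacacaggacctacacgtagCCGTT

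Of all 32851 windows in the table, 14.5% held AACGG or its reverse complement CCGTT. The SOX letters AACAAT (or ATTGTT) were in 9.42% of all windows and in none of the 12 member windows. The letters CNCCTCAG (or CTGAGGNG), known as the motif of the meiotic initiator STRA8, were in 6.42% of all windows and in 2 member windows, 1 of Stk31 and 1 of Tdrd7. The letters TCCCGC (or GCGGGA), known from E2F6, were in 16.9% of all windows and in 2 member windows, those of Tdrd3 and Tdrd5. None of the 4 motifs overlapped another in the member windows. A match describes letters and does not show that a factor binds there. Nor does the lack of a match in these few windows show that none binds.

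In KO testes 3 of the 9 Tudor genes fell and none rose. In the comparison with all 6 WT testes Tdrd9 fell 1.75-fold, Rnf17 1.61-fold and Tdrkh 1.51-fold (limma, Benjamini-Hochberg adjusted p = 0.0400, 0.0319 and 0.0319 over 22180 genes). Over all genes, 4.86% were called by the same test, 2.34% lower and 2.52% higher. Of the other 6 members, 5 had a negative change without passing and Tdrd3 was level. The median change of the 9 was -0.60 on the log2 scale, against 0.04 over all genes, and 7 of the 9 had an unadjusted p under 0.05, as had 5375 of the 22180 genes. The testis was measured whole, so fewer cells of a type and less RNA per cell cannot be told apart.

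**Figure D1:**
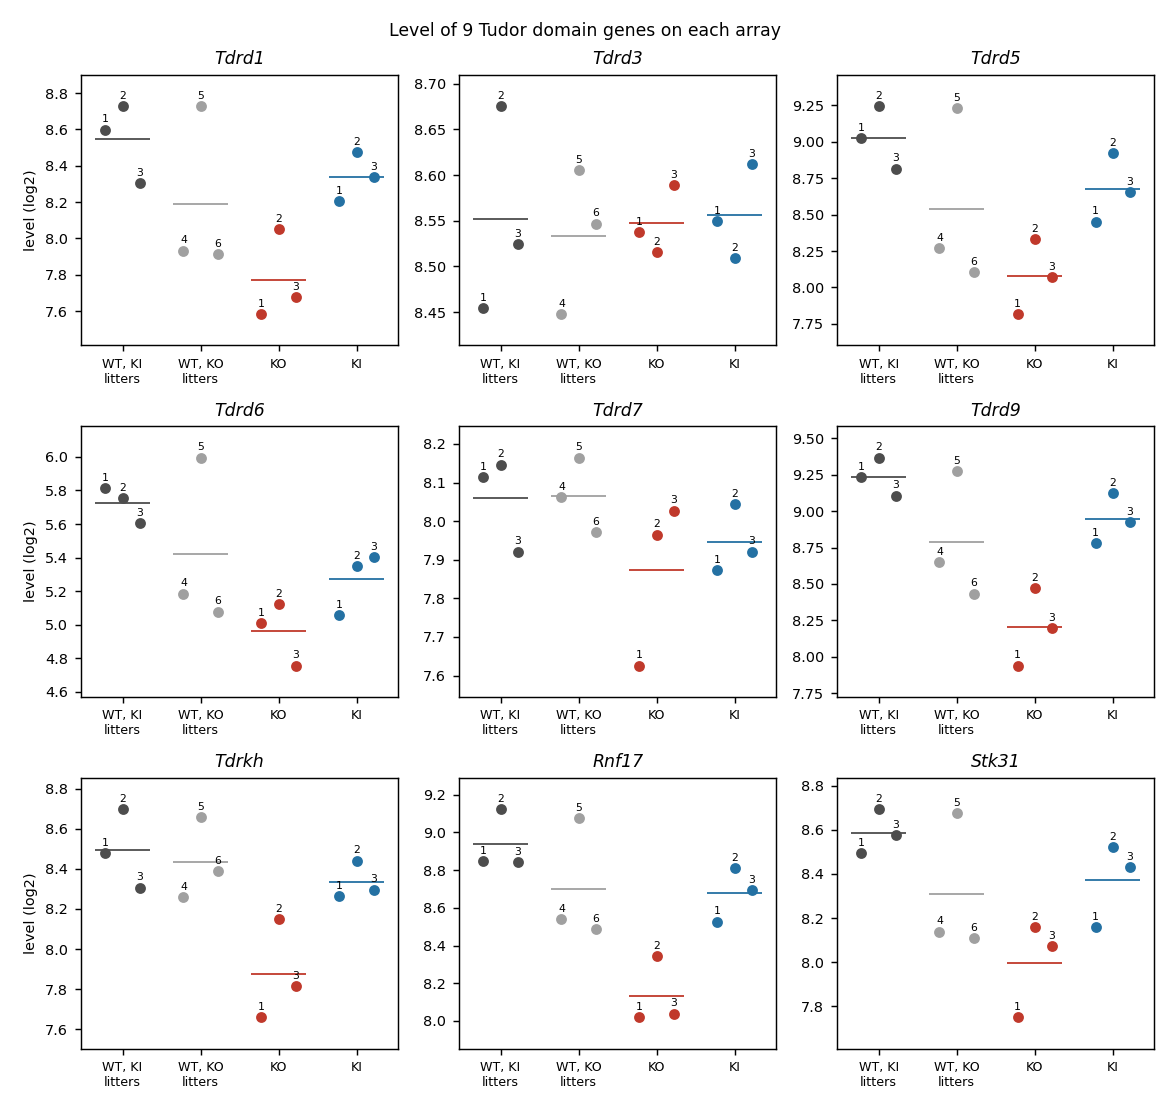
Level of each Tudor domain gene (log2, vertical axis, its own range in each panel) on each of 12 arrays. Points are arrays with their replicate number, horizontal lines are group means, and the 4 groups are the WT littermates of KI mice, the WT littermates of KO mice, KO and KI. For Tdrkh and Rnf17 all 3 KO points lie below all 6 WT points, and for Tdrd3 the 4 groups overlap.

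The members known for piRNA processing and loading came first. Tdrkh is a Tudor and KH domain protein of the mitochondrial surface that helps to trim piRNA ends. Its level was 8.48, 8.70 and 8.31 in WT 1 to WT 3 and 8.26, 8.66 and 8.39 in WT 4 to WT 6. It was 7.66, 8.15 and 7.82 in KO and 8.26, 8.44 and 8.30 in KI testes. All 3 KO testes lay below every WT and every KI testis, while KI and WT testes overlapped. The KO mean was 7.87 ± 0.25 (SD, n = 3) and the WT mean 8.46 ± 0.18 (SD, n = 6). The change was -0.59 (SE 0.12, 95% interval -0.85 to -0.33). The WT littermates of the 2 lines differed by 0.06 for this gene.

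Tdrd9, an RNA helicase with a Tudor domain that acts with the PIWI protein Piwil4 in transposon silencing, had the largest change of the 9. It was 9.23, 9.37 and 9.11 in WT 1 to WT 3 and 8.65, 9.28 and 8.43 in WT 4 to WT 6. It was 7.94, 8.47 and 8.20 in KO and 8.78, 9.12 and 8.92 in KI testes. KO 2 lay just above WT 6, so KO and WT overlapped, while all KO testes were below all KI testes. The change in KO testes was -0.81 (SE 0.20, 95% interval -1.24 to -0.38). The WT of the KI litters were higher than those of the KO litters by 0.45 (unadjusted p = 0.0440, limma adjusted p = 0.891).

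Tdrd1, a scaffold that binds the PIWI protein Piwil2, was 8.60, 8.73 and 8.30 in WT 1 to WT 3 and 7.93, 8.73 and 7.91 in WT 4 to WT 6. In KO testes it was 7.59, 8.05 and 7.68, and in KI testes 8.20, 8.47 and 8.34. KO 2 was above WT 4 and WT 6, so the groups overlapped. The KO change of -0.60 (SE 0.19) did not pass (limma adjusted p = 0.0873). Tdrd5, which binds the long precursors of pachytene piRNAs, was 9.02, 9.25 and 8.82 in WT 1 to WT 3 and 8.27, 9.23 and 8.10 in WT 4 to WT 6. It was 7.82, 8.33 and 8.07 in KO and 8.45, 8.92 and 8.66 in KI testes. The Tdrd5 change was -0.71 with the widest error of the 9 (SE 0.25) and did not pass (limma adjusted p = 0.104). Its WT spread (SD 0.49, n = 6) came mostly from WT 4 and WT 6, the 2 lowest WT testes.

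Rnf17, a RING finger and Tudor protein of a germ cell granule known to restrain piRNA amplification, was 8.85, 9.12 and 8.84 in WT 1 to WT 3. It was 8.54, 9.08 and 8.49 in WT 4 to WT 6, 8.02, 8.34 and 8.04 in KO, and 8.53, 8.81 and 8.69 in KI testes. As for Tdrkh, every KO testis was below every WT testis. Over all genes, KO testes lay wholly below WT testes for 4.59%, and among the 9 members for 2. The Rnf17 change in KO testes was -0.69 (SE 0.14). Stk31, which joins a Tudor domain to a kinase-like domain, was 8.49, 8.69 and 8.58 in WT 1 to WT 3 and 8.14, 8.68 and 8.11 in WT 4 to WT 6. It was 7.75, 8.16 and 8.07 in KO and 8.16, 8.52 and 8.43 in KI testes. KO 2 lay above WT 4 and WT 6 and, at 2 decimals, level with KI 1, and the difference of -0.45 (SE 0.15) did not pass (limma adjusted p = 0.0936).

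Tdrd6 and Tdrd7 are known from the chromatoid body of spermatids, a later stage than these testes have reached. Tdrd6, which shapes that body, was near background: 6 of the 12 arrays were under the limit of 5.33. It was 5.81, 5.75 and 5.60 in WT 1 to WT 3 and 5.19, 6.00 and 5.08 in WT 4 to WT 6. In KO testes it was 5.01, 5.12 and 4.76, and in KI testes 5.06, 5.35 and 5.40. KO and WT overlapped through WT 6, which lay below KO 2. The change of -0.61 (SE 0.19) did not pass (limma adjusted p = 0.0739), and its level was close to background. Tdrd7, also known from the lens, had a KO difference of -0.19 (SE 0.09, limma adjusted p = 0.238). It was 7.63 in KO 1 but 7.97 and 8.03 in the other KO testes, inside the WT range of 7.92 to 8.16. Without KO 1 its change was -0.07.

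Tdrd3 had the smallest change of the 9. WT testes had a mean of 8.54 ± 0.09 (SD, n = 6). The mean of KO testes was 8.55 ± 0.04 (SD, n = 3) and that of KI testes 8.56 ± 0.05 (SD, n = 3), and the groups overlapped. The interval of the KO difference ran from -0.14 to 0.15, so a change as large as that of Tdrkh lay outside it. Whether Tdrd3 differs from the other members in its response was not tested.

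**Figure D2:**
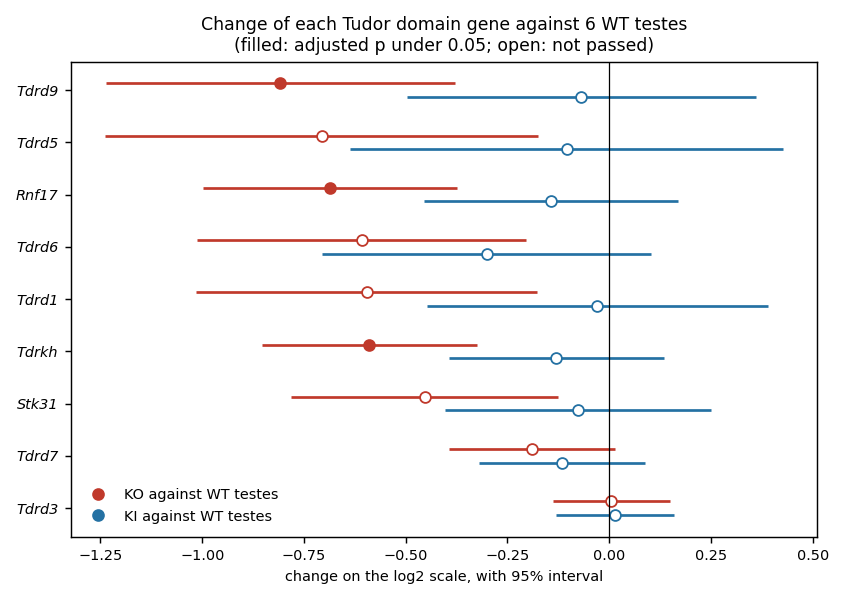
Change of each Tudor domain gene on the log2 scale (horizontal axis) in KO testes (red) and KI testes (blue) against the same 6 WT testes, with 95% intervals from limma. Filled points passed at an adjusted p of 0.05: Tdrd9 at -0.81, Rnf17 at -0.69 and Tdrkh at -0.59 in KO testes. All KI points are open and their intervals include 0.

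The 3 calls depended on which arrays and controls were used. With WT 1, WT 2, WT 3, WT 5, KO 1 or KO 3 left out no member passed. Without WT 4 the count was 5, without WT 6 it was 7, and without any 1 KI array it was 2. A KI array only lends its spread to this comparison. Over all genes 1078 passed with all arrays, and 2 to 2323 with 1 array left out. The member counts thus moved along with counts over all genes that also varied widely, and are no result about the members alone. Without KO 2, the highest KO testis for 7 members, Tdrd9 (-0.94, limma adjusted p = 0.0245), Rnf17 (-0.79, adjusted p = 0.0141) and Tdrkh (-0.73, adjusted p = 0.00721) passed, and 2323 genes in all. Against the 3 WT littermates of KO mice alone no member passed by limma, 4 of the 9 had an unadjusted p under 0.05 (3480 of all genes), and 2 genes passed in all, 0.00902% of those tested (0.00451% lower and 0.00451% higher).

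**Figure D3:**
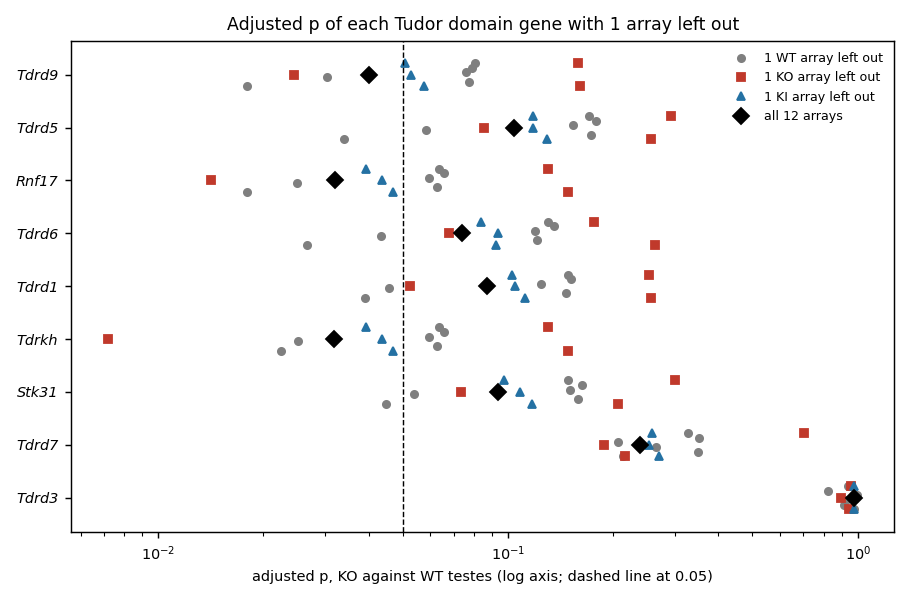
Adjusted p (horizontal log axis) of each Tudor domain gene in KO against WT testes, with all 12 arrays (black diamonds) and with 1 WT (grey circles), KO (red squares) or KI (blue triangles) array left out. The dashed line marks 0.05. Tdrd9, Rnf17 and Tdrkh lie on both sides of it depending on the array left out, and Tdrd7 and Tdrd3 always lie to its right.

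Against their own littermates the KO differences were smaller than against all WT for the 7 members other than Tdrd3 and Tdrd7. The difference was -0.56 (SE 0.15) for Tdrkh and -0.57 (SE 0.16) for Rnf17, and all 3 KO testes lay below all 3 littermates for these 2 members. Over all genes this was so for 7.13%, and 10.2% lay wholly above, as no member did. Their limma adjusted p was 0.160 and 0.165. The difference was -0.58 for Tdrd9 (limma adjusted p = 0.214) and -0.46 for Tdrd5 (adjusted p = 0.406).

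The WT testes varied along the same genes. WT 4 and WT 6, both KO littermates, were the 2 lowest WT testes for 6 members (Tdrd1, Tdrd5, Tdrd6, Tdrd9, Rnf17 and Stk31). WT 2 and WT 5 were the 2 highest for 8, all except Tdrd6. The mean of the 9 genes was 7.94 in WT 4 and 7.89 in WT 6, against 8.49 in WT 5, also a KO littermate. Of the KO testes, KO 2 was the highest for 7 members (all except Tdrd3 and Tdrd7), and its mean of 7.90 lay between those of WT 6 and WT 4. KO 1 (7.55) and KO 3 (7.69) lay below every WT testis. Between the WT of the 2 lines no member passed by limma, 1 had an unadjusted p under 0.05 (Tdrd9), as had 1174 of all genes with none passed, and the median difference of the 9 was 0.28, against -0.01 over all genes. The arrays of the 2 WT groups overlapped for all 9 members, while over all genes the KI littermates lay wholly higher for 3.80% and wholly lower for 7.93%.

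Markers of meiotic cells moved with the Tudor genes across arrays. The mean of 16 pachytene markers was 6.18, 6.87 and 6.27 in KO testes and 6.99, 7.45 and 7.31 in KI testes. It was 6.92, 7.78 and 6.72 in WT 4 to WT 6 and 7.67, 7.79 and 7.38 in WT 1 to WT 3. The same 2 WT testes were thus low for both groups of genes, and KO 2 was again the highest KO testis. Of these 16 markers 7 fell in KO testes (Brdt, Clgn, Hspa2, Mybl1, Nek2, Tsga10 and Ybx2), none rose and the median change was -0.97. Ccna1, Spag6, Pgk2 and Insl6 of that list had means under the background limit. Of the 26 early meiotic genes 21 fell, none rose and the median was -0.74. Their mean lay between 7.54 and 8.23 in KO and between 8.41 and 8.76 in WT testes, without overlap. In KI testes it lay between 8.25, in KI 1, and 8.58.

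Markers of somatic cells and of spermatogonia were read in the same way. Of 15 Sertoli markers 3 rose (Fshr, Inhbb and Kitl), with list means of 9.75 to 9.99 in KO and 9.53 to 9.71 in WT testes. Of 7 Leydig cell markers 1 rose (Hsd3b1), with list means of 8.57 to 8.90 in KO and 7.80 to 8.44 in WT testes. Of 7 peritubular markers 1 rose (Cald1, list means of 9.17 to 9.34 against 8.92 to 9.15). Of 16 markers of undifferentiated spermatogonia 3 rose (Etv5, Gfra1 and Ret) and none fell, and the list means of 6.80 to 6.87 lay above the highest WT mean of 6.77. Of 10 markers of differentiating spermatogonia 2 fell (Prss50 and Tex101) and none rose (means of 8.35 to 8.54 against 8.62 to 8.71). Of 7 endothelial and 9 macrophage markers none passed by limma, with 0 and 1 at an unadjusted p under 0.05, and their means overlapped between KO and WT. The part of cell composition in the change of the Tudor genes was not tested.

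**Figure D4:**
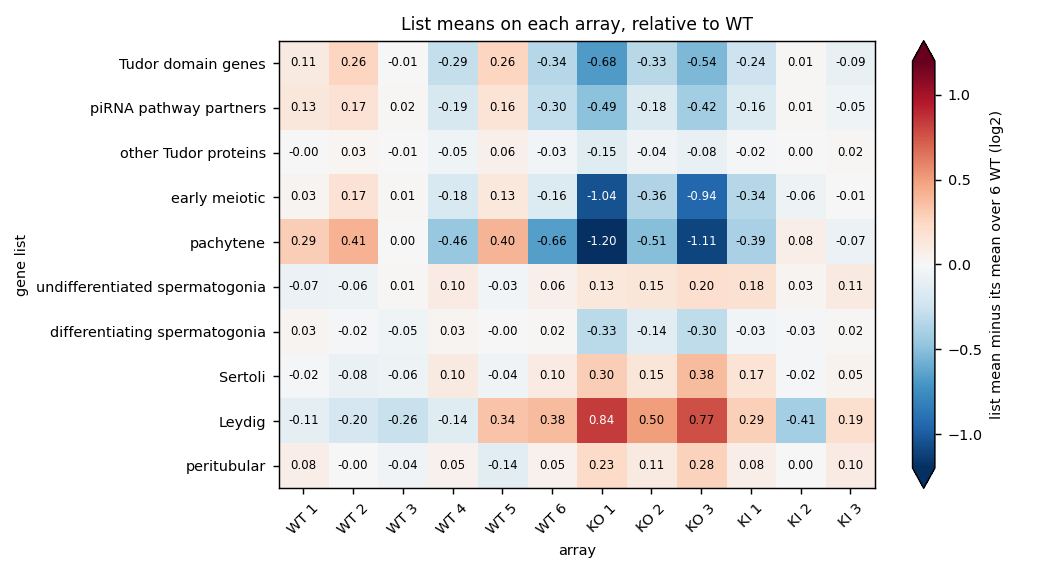
Mean of each gene list (rows) on each of 12 arrays (columns), less its mean over the 6 WT arrays, on the log2 scale (blue lower, red higher). The Tudor, piRNA partner, early meiotic and pachytene rows are low in KO 1 and KO 3 and less so in KO 2. All 4 are also low in WT 4, WT 6 and KI 1.

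The partners of the Tudor proteins in the piRNA pathway were given by a list of 22 genes, of which 21 were measured. In KO testes 6 fell, 1 rose and 14 did not pass, with a median change of -0.33. Of those that fell Mybl1 had the smallest p (-0.87, SE 0.18, limma adjusted p = 0.0317). Tdrd12, a Tudor domain helicase outside the 9, fell by 1.02 on the log2 scale (SE 0.21, adjusted p = 0.0318). Gpat2, a mitochondrial protein that binds Piwil2, fell, with a change of -0.63 (adjusted p = 0.0320), and Mov10l1, the helicase that hands piRNA precursors on for cutting, fell as well, with -0.73 (adjusted p = 0.0328). The helicases Ddx4 (-0.61) and Ddx25 (-0.74) fell as well (adjusted p = 0.0424 for both). Spocd1, known from piRNA-directed DNA methylation in fetal germ cells, was the gene that rose (0.57, SE 0.11, adjusted p = 0.0311).

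The PIWI proteins themselves did not pass. Piwil1, the PIWI protein of pachytene cells, had the largest difference of the list (-1.68) with an SE of 0.53 (limma adjusted p = 0.0802). Piwil2, present in spermatogonia among other germ cells, had a difference of -0.58 (adjusted p = 0.107). Piwil4, the partner of Tdrd9 known from fetal and early postnatal germ cells, had a difference of 0.36 (adjusted p = 0.0536). Piwil1 and Mybl1 are also in the pachytene marker list. Tdrd12 is in both this list and the next.

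The other list held 27 genes, made up of other Tudor domain proteins, most of them readers of chromatin or splicing factors, and Top3b, the partner of Tdrd3. Of the 26 measured, 2 fell in KO testes, Tdrd12 and Setdb1 (-0.31, SE 0.07, limma adjusted p = 0.0365), the histone methyltransferase with a Tudor domain. None rose, 24 did not pass and the median change was -0.07. Top3b had a difference of -0.24 (adjusted p = 0.0782).

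In KI testes no Tudor gene passed against WT by limma, and no member had an unadjusted p under 0.05. No gene among the 22180 passed, and 1163 had an unadjusted p under 0.05. The median change of the 9 was -0.10, and -0.001 over all genes. No member lay wholly below or wholly above WT, against 1.31% and 1.79% of all genes. The largest difference was that of Tdrd6 (-0.30, 95% interval -0.71 to 0.10), and the difference was -0.07 for Tdrd9 (95% interval -0.50 to 0.36). KI 1 was the lowest KI testis for 8 members, all except Tdrd3, and KI 2 the highest for 7. Against their own WT littermates KI testes had larger negative differences for the 7 members other than Tdrd3 and Tdrd7, with a median over the 9 of -0.22, and 1 member (Tdrd6) and 1000 of all genes had an unadjusted p under 0.05. For Tdrd6 (-0.45, unadjusted p = 0.0487) and Rnf17 (-0.26, unadjusted p = 0.126) all 3 KI testes lay below all 3 littermates, as they did for 6.07% of all genes, and 8.37% lay wholly above. Neither passed after adjustment (limma adjusted p = 0.930 for both). In the piRNA partner list none passed by limma and 2 had an unadjusted p under 0.05, Piwil4 (0.31) and Dnmt3l (-0.25). In the other Tudor list none passed and none had an unadjusted p under 0.05. The genes of highest level in the 2 lists had differences of -0.16 (Mov10l1), -0.08 (Mael), 0.09 (Spin1) and -0.06 (Fxr1). Without KI 1, whose Sox3 level was that of WT, again no member passed.

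KI and KO testes were set against each other in the same fit. No member passed by limma, while 4 had an unadjusted p under 0.05 (Tdrd1, Tdrd9, Tdrkh and Rnf17), as had 3993 of all 22180 genes, none of which passed. The median difference of the 9 was 0.46 higher in KI testes, against -0.05 over all genes. All 3 KI testes lay above all 3 KO testes for 6 members (Tdrd1, Tdrd5, Tdrd9, Tdrkh, Rnf17 and Stk31). Over all genes this was so for 9.56%, and 12.6% lay wholly lower. For Stk31 the margin was minimal, with KO 2 and KI 1 both at 8.16. Without KI 1 no member passed, and without KO 2 Tdrkh did. Tdrd9 was higher in KI testes by 0.74 (SE 0.23, 95% interval 0.24 to 1.24, limma adjusted p = 0.160) and Tdrkh by 0.46 (SE 0.14, adjusted p = 0.158). In the piRNA partner list 13 of 21 genes had an unadjusted p under 0.05 and none passed. In the order of group means KO was lowest, KI next and WT highest for 8 members, all except Tdrd3, with all 6 WT testes as 1 group. How many of all genes have this order was not counted, so it is no result about the members alone. Against the WT littermates of KO mice alone, the KI mean was the higher for Tdrd1 (8.34 and 8.19), Tdrd5 (8.68 and 8.54) and Tdrd9 (8.94 and 8.79). The same held for Stk31 (8.37 and 8.31) and, by little, for Tdrd3 (8.56 and 8.53). Both KI and KO were set against the same 6 WT testes, so their places in this order are not independent.

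When each mutant was first set against its own littermates, the difference of the 2 effects was tested. No member passed by limma, none had an unadjusted p under 0.05, and 1293 of all genes did, with none passed. The difference was 0.40 for Tdrkh (95% interval -0.05 to 0.85, unadjusted p = 0.0758) and 0.29 for Tdrd9 (95% interval -0.32 to 0.91). Both intervals include 0 and also differences as large as the KO effect of Tdrkh.

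The genes whose pattern over the 12 arrays was nearest to the mean of the 9 Tudor genes were Nup205, a nuclear pore protein, Stil, a centriole assembly protein, and Nek4, a kinase. Nearness was the mean absolute difference between levels after each gene's own mean was subtracted, and it was 0.04 for each of these genes, on a profile that spanned 0.94. Nearest to single members were Boll, a germ cell RNA-binding protein, for Tdrd9 (0.06), the kinetochore protein gene Knl1 for Tdrkh (0.05) and the cell division activator Cdc20 for Rnf17 (0.04). Xrra1 was nearest to Tdrd1 (0.05), Pomt1 to Tdrd5 (0.06) and Ppp1r14bl to Tdrd6 (0.08). Ncbp1 was nearest to Tdrd7 (0.03), Immt to Tdrd3 (0.03) and 4932438A13Rik to Stk31 (0.04). The profile spanned only 0.23 for Tdrd3 and 0.54 for Tdrd7, against 1.43 for both Tdrd5 and Tdrd9. A small distance to a flat profile is thus no closer likeness.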

How the data were processed

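The deposited values were log2 expression per transcript cluster (0.915 to 13.9) for 41345 clusters on 12 arrays, 1 array per testis. Per the submitters' processing notes the tools were RMA, Partek 6.6 and Affymetrix Expression Console, whose roles are unstated. That the scale is log2 was taken from RMA and the range of the values. No source at hand stated the filters, the annotation release or how background was corrected. RMA is meant to bring arrays to a common scale, so changes were read as relative within an array. The deposited arrays did not share exactly 1 distribution, since their medians ran from 5.74 to 5.82. A new quantile normalization moved the median KO change over all genes, against all WT, from 0.043 to 0.023. Clusters were named from the platform annotation. The 23521 clusters with 1 symbol gave 22180 genes, each represented by its cluster of highest mean, and 1814 clusters with several symbols and 16010 with none were left out.

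Genes were tested with limma 3.58.1 (lmFit and eBayes, two-sided, R 4.3.3) with Benjamini-Hochberg adjustment over 22180 genes and a threshold of 0.05. Mutants were compared with all WT in a fit of 3 genotypes, and litters in a fit of 4 groups. No filter was applied. The p-values set each difference against the spread between these testes, moderated over all genes. Whether that is a spread between separate mice is not stated in the labels. The number of arrays limits precision: the 95% interval reached 0.22 to either side for the median gene in each mutant against WT. The fit was tested on simulated data, whose outcome is not given here and is not used as support. Figures and counts used Python 3.11.15, numpy 2.4.6, pandas 2.3.3 and matplotlib 3.10.9. Array medians ranged from 5.74 to 5.82 and no 2 arrays were identical.

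The members and gene lists were chosen with earlier results of these data known, and the promoter motifs after the tests. All 9 members were named in every comparison. Of the 2 pathway lists, up to 6 genes of smallest p that passed in each direction were named, or the 2 of highest level where none passed. The PIWI genes, Top3b, Dnmt3l and single marker genes were named after their values were seen. Alternatives tried were a filter on dim genes, median centring, quantile normalization anew, array weights, trended robust eBayes, mean clusters, other controls, single arrays left out and a block on the replicate number.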

Additional observations from a re-analysis of the deposited data

How the results depend on the processing

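The changes of Tdrd9, Rnf17 and Tdrkh in KO testes were negative in all 22 alternatives each, from -1.03 to -0.58, -0.80 to -0.57 and -0.73 to -0.48. The members called in KO testes were 3 with all arrays, 5 with only genes above the median level (Tdrd6 left out as dim), 0 with WT of the own litters only, and 0 to 7 with 1 array left out. Genes called were 1078, 2459 above the median level, 2048 with trended robust eBayes, 2 with own litters and 2 to 2323 with 1 array left out. For KI against KO, 57 genes were called above the median level, 5 with trended robust eBayes and 0 to 721 with 1 array left out (0 to 1 member). For KO against its littermates the count was 2, with 4 after quantile normalization, 32 above the median level, 1 with array weights, 41 with trended robust eBayes, 1 with mean clusters and 0 to 605 with 1 array left out (0 to 1 member). Between WT litters 1 gene was called with trended robust eBayes and 0 to 50 with 1 array left out. The cause of these shifts was not tested.

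Whether the replicate numbers 1 to 3 pair the testes is not stated in the labels, and the check made does not settle it. Deviations of same-numbered arrays correlated between -0.03 and 0.16 over genes, and those of differently numbered arrays between -0.19 and 0.08. Not every array correlated best with its own number. A replicate block over KO, KI and WT 1 to WT 3 called 7 members in KO testes. The same 9 arrays without it, an alternative added after seeing the data, called 7 as well. The count over all genes in these fits is not given here, so the 7 is no result about the members alone. For KI against KO the block called 3 members (Tdrd5, Tdrd9 and Rnf17) and 247 genes, against 0 and 0 for the same arrays without it.

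Changes near 0 turned sign. For Tdrd3 in KO testes the value was -0.0094 with median centring, -0.0015 with array weights, -0.0044 with the block, with the same 9 arrays and with WT of the other litters, and -0.016 to 0.031 with 1 array left out. Against WT of the other litters KI changes were 0.15 (Tdrd1), 0.14 (Tdrd5), 0.16 (Tdrd9) and 0.064 (Stk31). With 1 array left out KI changes ran from -0.12 to 0.043 (Tdrd1), -0.013 to 0.041 (Tdrd3), -0.24 to 0.0080 (Tdrd5), -0.18 to 0.012 (Tdrd9) and -0.15 to 0.029 (Stk31). For KI against KO, Tdrd3 was -0.0048 after quantile normalization and -0.018 to 0.033 with 1 array left out, and Tdrd7 -0.050 to 0.15.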
